A study of Homo sapiens with 4 samples.

Results

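The mRNAs of 7 proteins known to bind RNA G-quadruplexes were examined as targets of the helicase DHX36. The genes were FMR1, FXR1, FXR2, CNBP, EWSR1, TAF15 and NCL, chosen by the function of their products and not by a measured value, out of 26490 genes listed. Each of them is listed once. Earlier results of these data were known when they were chosen. The cells were HEK293, a line from human embryonic kidney, of which the authors made a pair of stable lines by Flp recombinase integration, with selection of positive clones, so that expression of a FLAG/HA-tagged transgene is driven by tetracycline. One line expressed FH-DHX36, which the labels name as isoform 2. The other expressed the helicase-dead FH-DHX36-E335A, which the labels name as isoform 1. The isoform and the mutation differ together between the lines and cannot be told apart. Both lines descend from wild-type cells and so keep their own DHX36 gene. Tetracycline was given to both at 500 ng per ml over 15 h, and the cells were fed the uridine analog 4SU and irradiated at 365 nm for 5 min. There were 2 replicates per line, but the deposited values give 1 number per gene and line, so that no replicate spread and no p-value can be given.

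G-quadruplexes are stacks of guanine tetrads that G-rich RNA can form. DHX36 unwinds them, and many other proteins bind them, some without unwinding. FMR1 encodes FMRP, a polyribosome-associated repressor of translation whose loss causes fragile X syndrome, and FXR1 and FXR2 are its paralogs. CNBP is a zinc-knuckle protein that binds G-rich elements in mRNA, and the authors count it among the factors that unfold RNA G-quadruplexes. EWSR1 and TAF15 are related RNA-binding proteins of the FET family. NCL is nucleolin, an abundant nucleolar protein with roles in the maturation of ribosomal RNA. FMRP, NCL, EWSR1 and TAF15 contain repeats of arginine, glycine and glycine (RGG), which contact G-quadruplexes. The comparison below describes how DHX36 contacted the mRNAs of these proteins.

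The sequences of these mRNAs were searched for the letters a G-quadruplex needs. The canonical transcript of GENCODE release 44 on GRCh37 was read on its sense strand for 4 or more runs of 2 or more guanines, with spacers of 1 to 7 nt of any base. Because a spacer may itself be a G, a run of 5 or more guanines can count as a pair of runs. The 7 transcripts held 71 matches that do not overlap, 8 of them in 5'UTRs, 49 in CDSs and 14 in 3'UTRs. Matches were found in 14 of the 21 regions. Such matches are common, since 53.7% of all 5'UTRs, 84.3% of all CDSs and 64.7% of all 3'UTRs held at least 1. A match is a description of letters and no binding site, because the deposited values do not place the clusters within a region.

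With runs of at least 3 guanines, the pattern that allows 3 stacked tetrads, 2 matches remained, both in a 3'UTR. They are shown because one lies in the mRNA with the highest FH-DHX36-E335A NXPM of the members and the other in an mRNA without a cluster. Capitals mark runs of at least 3 guanines.
FXR1 3'UTR, chr3:180694373-180694394, plus strand: GGGGGGtggtGGGtGGGGtGGG
TAF15 3'UTR, chr17:34174075-34174090, plus strand: GGGtGGGaGGGctGGG
Of 3'UTRs within 20% of the length of that of FXR1 (6461 nt), 27.8% held such a match, and 6.29% of those with a length like that of TAF15 (297 nt).

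The 3'UTR matches of CNBP and NCL, which with FXR1 had the most FH-DHX36-E335A reads in this region among the members, are shown next. Here and in the lines after them, capitals mark runs of at least 2 guanines. All lie in the last exon, which is exon 5 of CNBP and exon 14 of NCL.
CNBP 3'UTR, chr3:128889151-128889165, minus strand: GGaGGaaaGGGGtGG
CNBP 3'UTR, chr3:128888421-128888434, minus strand: GGaGGaGGaaGGGG
CNBP 3'UTR, chr3:128888145-128888163, minus strand: GGttttttGGtGGtGGtGG
CNBP 3'UTR, chr3:128888084-128888102, minus strand: GGctGGagtgcaGGcttGG
NCL 3'UTR, chr2:232319101-232319117, minus strand: GGGGaGGccgaGGcaGG
NCL 3'UTR, chr2:232318803-232318832, minus strand: GGacactttGGaaccttGGGGctGGGGaGG
NCL 3'UTR, chr2:232318418-232318431, minus strand: GGGGatGGGGGtGG
NCL 3'UTR, chr2:232318363-232318381, minus strand: GGaaGGtGGccagccaGGG
The CNBP 3'UTR of 2626 nt contained 21.1% G and the NCL 3'UTR of 1660 nt contained 24.0% G, compared with a median of 20.9% over all 3'UTRs. Among 3'UTRs of like length, 84.3% and 76.1% held a match.

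In the CDS, some of the matches lay where RGG repeats are encoded. In-frame triplets of an arginine codon and a pair of glycine codons numbered 22 in EWSR1, 22 in TAF15, 10 in NCL, 2 each in FMR1, FXR1 and CNBP, and 0 in FXR2. Of all 19540 canonical CDSs, 12.6% held at least 1 triplet and 0.194% at least 5. Of the 49 CDS matches, 16 overlapped a triplet, 7 of them in TAF15, 6 in EWSR1 and 1 each in NCL, FMR1 and FXR1. The longest match, 218 nt within exon 15 of TAF15, was one of these. One match that partly overlaps RGG codons and one of the FMR1 CDS are shown as examples that are short enough to read. The EWSR1 match spans nt 899 to 917 of the CDS, and the first triplet of EWSR1 begins at codon 304.
EWSR1 CDS over RGG codons, exon 8, chr22:29684700-29684718, plus strand: GGGGcaGGGGaagaGGGGG
FMR1 CDS, exon 14, chrX:147024811-147024835, plus strand: GGGGGcacGGcagacgcGGtcctGG
Thus every one of the 7 CDSs held the pattern, with 13 matches in TAF15, 10 in FXR2, 9 in EWSR1, 6 in FXR1, 5 in FMR1, 4 in NCL and 2 in CNBP. Most CDSs of like length also held at least 1 match, 71.5% for CNBP and from 90.4% to 91.25% for the other members. TAF15 was the richest in G, with 34.3% of its CDS, the percentile 95.6 of all CDSs.

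**Figure D1:**
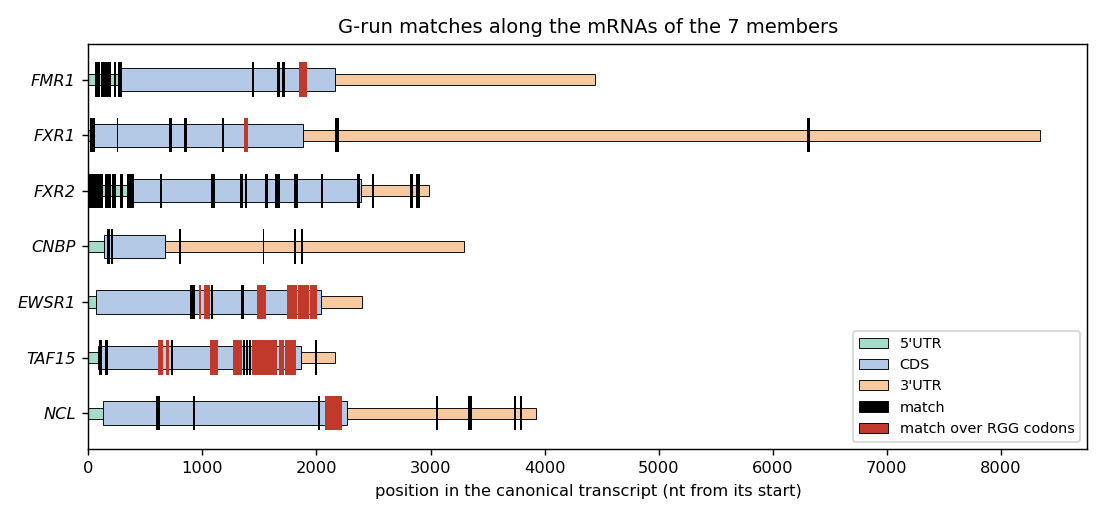
Position of the 71 matches along the canonical transcript of each gene, in nt from the transcript start, with the CDS as the thick bar and the UTRs as thin bars. Black ticks are matches, and red ticks are the 16 CDS matches that overlap RGG codon triplets, most of them in EWSR1 and TAF15.

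In PAR-CLIP, 4SU in the RNA is crosslinked to the bound protein, and reads that overlap and carry T-to-C conversions are called as clusters. At least 1 cluster was listed on 5 of the 7 mRNAs in each PAR-CLIP, and these were the same genes, FXR1, FXR2, CNBP, EWSR1 and NCL. For comparison, 34.5% of all listed genes had an FH-DHX36-E335A cluster, 22.4% an FH-DHX36 cluster and 21.4% both. That background covers genes of any expression level. The FH-DHX36 PAR-CLIP summed to 2160413 crosslinked reads, and that of FH-DHX36-E335A, also called the mutant here, to 8752127. Levels are therefore given as RPM, crosslinked reads per 1000000 crosslinked reads of the same PAR-CLIP. Intervals are 95% intervals that cover counting error only, since reads copied by PCR are not independent molecules.

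FMR1 and TAF15 were listed with 0 clusters and 0 crosslinked reads in both PAR-CLIPs. The FMR1 transcript (chromosome X, 146993437 to 147032645, plus strand, 17 exons) held 8 matches of the G-run pattern, 3 in the 5'UTR and 5 in the CDS, and none in its 3'UTR of 2281 nt. The 5'UTR of FMR1, which carries the CGG repeat, consisted of 48.7% G, the percentile 95.9 of all 5'UTRs. TAF15 (chromosome 17, 34136488 to 34174246, plus strand, 16 exons) held 14 matches. G-rich letters were thus present in both mRNAs without a listed cluster. RNA abundance can be recovered from the deposited values only for genes with a cluster, so that the expression of FMR1 and TAF15 was not analysed here. TUBB, a tubulin gene in general use, was also listed at 0, and the value 0 is read only as no listed cluster.

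Between the paralogs FXR1 and FXR2, contact differed in level and in its change between the cell lines. FXR1 (chromosome 3, 180630458 to 180700541, plus strand) had 2 FH-DHX36 clusters with 164 crosslinked reads and 14 FH-DHX36-E335A clusters with 3108. These are 75.9 and 355 RPM, a ratio of 4.68 (95% interval 3.997 to 5.51) and the largest of the 5 genes. FXR2 (chromosome 17, 7494548 to 7518215, minus strand) had 4 clusters with 249 reads and 13 clusters with 1242 reads. Its 115 and 142 RPM gave a ratio of 1.23 (1.07 to 1.42). The FXR1 ratio was thus above that of FXR2 beyond counting error.

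The regions of contact also changed on FXR1. With FH-DHX36, 141 of its 164 reads lay in 1 CDS cluster and 23 in 1 3'UTR cluster. With FH-DHX36-E335A, 2082 reads lay in 6 clusters of the 3'UTR, 196 in 4 CDS clusters, 83 in an intron and 747 in 3 clusters of another annotation. The FXR1 3'UTR thus had 10.6 RPM with FH-DHX36 against 238 in the mutant, whereas the CDS had 65.3 against 22.4 RPM. FXR2 had 139 reads in 2 CDS clusters, 32 in the 5'UTR and 78 of another annotation with FH-DHX36, and no 3'UTR cluster. With FH-DHX36-E335A it had 582 reads in 10 CDS clusters, 354 in a single 3'UTR cluster, 127 in an intron and 179 of another annotation. The FXR2 CDS differed little between the PAR-CLIPs, at 64.3 and 66.5 RPM (ratio 1.03, 0.858 to 1.25). Its 5'UTR, with 46.3% G and 5 matches the G-richest region of the gene, held 1 cluster with FH-DHX36 and none with FH-DHX36-E335A.

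CNBP had most of its reads in the 3'UTR in both PAR-CLIPs. CNBP (chromosome 3, 128886670 to 128902739, minus strand) had 7 FH-DHX36 clusters with 1152 reads and 10 FH-DHX36-E335A clusters with 9925 reads, the most of the 7 genes in that PAR-CLIP. These are 533 and 1134 RPM, a ratio of 2.13 (2.00 to 2.26). The 3'UTR held 705 reads in 5 clusters with FH-DHX36 and 8664 reads in 4 clusters with FH-DHX36-E335A, so that the reads per cluster went from 141 to 2166. The 5'UTR, of only 135 nt, held 1 cluster in each PAR-CLIP, with 125 and 199 reads. The CDS, which encodes the zinc knuckles, had no FH-DHX36 cluster and 1 FH-DHX36-E335A cluster with 62 reads, although it holds 2 matches of the G-run pattern. Clusters of another annotation held 322 and 964 reads.

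EWSR1 and NCL, like FXR1 (86.0% of its reads) and FXR2 (55.8%), were contacted mainly in the CDS by FH-DHX36. EWSR1 (chromosome 22, 29664257 to 29696511, plus strand) had 9 FH-DHX36 clusters with 2104 reads and 11 FH-DHX36-E335A clusters with 2040 reads. The read numbers were alike, but scaled they are 974 and 233 RPM, so that the FH-DHX36 share was 4.18-fold higher (3.93 to 4.44). Its CDS held 1859 FH-DHX36 reads and 1396 FH-DHX36-E335A reads, in 6 clusters each. Its short 3'UTR of 360 nt, without a match, held 21 and 556 reads. Introns of EWSR1 held 224 FH-DHX36 reads and 30 FH-DHX36-E335A reads.

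NCL (chromosome 2, 232318242 to 232329195, minus strand) had 13 FH-DHX36 clusters with 3813 reads, the most of the 7 genes in that PAR-CLIP, and 19 FH-DHX36-E335A clusters with 7722 reads. The share of 1765 RPM with FH-DHX36 was 2.00-fold that of 882 with FH-DHX36-E335A (1.92 to 2.08). In the NCL CDS lay 3653 FH-DHX36 reads, in 9 clusters, and 2696 FH-DHX36-E335A reads, in 14 clusters. The NCL 3'UTR had 3 clusters in each PAR-CLIP, with 114 and 2072 reads, or 38 and 691 reads per cluster. A further 2954 FH-DHX36-E335A reads lay in 2 clusters of another annotation, and none of the FH-DHX36 reads.

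**Figure D2:**
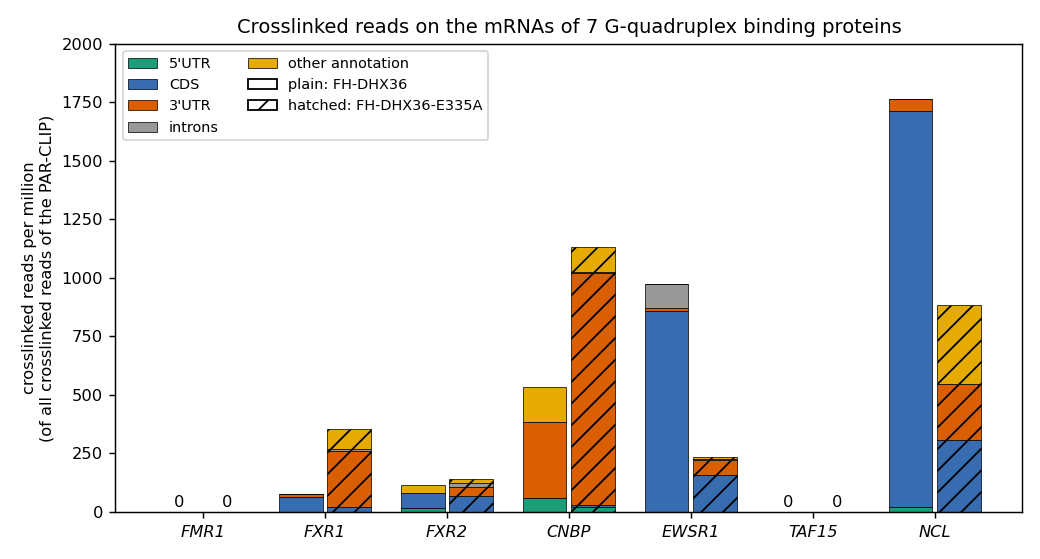
RPM, the crosslinked reads scaled to the sum of each PAR-CLIP, on each of the 7 mRNAs, stacked by annotation, with plain bars for FH-DHX36 and hatched bars for FH-DHX36-E335A (1 value each, no replicates). The bars of NCL, EWSR1, FXR1 and FXR2 are mostly CDS with FH-DHX36, those of CNBP mostly 3'UTR in both PAR-CLIPs, and FMR1 and TAF15 are at 0.

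Thus a ratio of at least 2 was reached by FXR1 and CNBP toward FH-DHX36-E335A and by EWSR1 and NCL toward FH-DHX36. Among the 5669 genes that both PAR-CLIPs list with clusters, 28.6% and 24.8% passed the same ratio in these directions, and 53.4% had the larger share with FH-DHX36-E335A, as did 3 of the 5 genes here. CNBP and NCL lay at the edge of this ratio over all reads. Scaled by the median ratio over genes bound in both, CNBP came to 1.96. NCL came to a ratio of 0.505 when the same reads were scaled to the exonic reads of each PAR-CLIP, but to 0.312 with its exonic reads alone, which leave out the 2954 mutant reads of another annotation. The share of clusters in place of reads turned CNBP (0.397) and FXR2 (0.904) toward FH-DHX36, and FXR1 kept the direction with 1.95.

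NXPM, the authors' crosslinked reads relative to RNA abundance, set all 5 genes above the median of the bound genes in both PAR-CLIPs. FH-DHX36-E335A NXPM was 60.9 for FXR1, 28.3 for NCL, 18.6 for CNBP, 13.9 for FXR2 and 6.08 for EWSR1, with a median over all 9131 genes with a cluster of 5.66. In order of NXPM, FXR1 was at position 826 of them and EWSR1 at 4423. FH-DHX36 NXPM was 56.6 for NCL, 25.4 for EWSR1, 13.0 for FXR1, 11.3 for FXR2 and 8.76 for CNBP, with a median over 5930 genes of 7.84. By the number of crosslinked reads CNBP stood much higher, at position 87 for the mutant and 399 for FH-DHX36. The recovered RNA abundance of CNBP was 60.9, that of EWSR1 38.3, NCL 31.2, FXR2 10.2 and FXR1 5.83, in the units of the authors' RNA-seq quantification. FXR1 thus had the highest NXPM with FH-DHX36-E335A and the lowest RNA abundance of the 5 genes. The abundance is the divisor of NXPM, so that these values are not independent. By RPM of the mutant, FXR1 at 355 lay below CNBP at 1134 and NCL at 882.

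Abundance is measured per length and NXPM is not, so that levels of different genes are set side by side as NXPM per kb of canonical transcript. The reads counted include introns and another annotation, whereas the length is that of the exons alone. With FH-DHX36, the order was NCL at 14.4 (95% interval 14.0 to 14.9), EWSR1 at 10.6, FXR2 at 3.79 (3.33 to 4.29), CNBP at 2.66 (2.51 to 2.82) and FXR1 at 1.56 (1.33 to 1.82). On all reads, no intervals of neighbours overlapped. Of the FH-DHX36 reads, 830 of 1152 on CNBP, 171 of 249 on FXR2 and all 164 on FXR1 were exonic. The separation was not tested on exonic reads. With FH-DHX36-E335A, FXR1 at 7.30 (7.04 to 7.56) and NCL at 7.21 (7.05 to 7.37) did not differ beyond counting error on all reads. They were followed by CNBP at 5.66, FXR2 at 4.66 and EWSR1 at 2.53. Only 4768 of 7722 NCL reads, 2278 of 3108 FXR1 reads and 8925 of 9925 CNBP reads of the mutant were exonic. Whether this order holds on exonic reads was not tested. The medians over all genes with a cluster and a matched length were 2.02 NXPM per kb for FH-DHX36 and 1.59 for the mutant. On this scale FXR1 with FH-DHX36, at 1.56, lay below the median, unlike its NXPM, and the other values lay above. Per kb, FXR1, whose transcript of 8.34 kb is the longest, went from the third place to the last with FH-DHX36, and the order with FH-DHX36-E335A was the same on both scales.

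**Figure D3:**
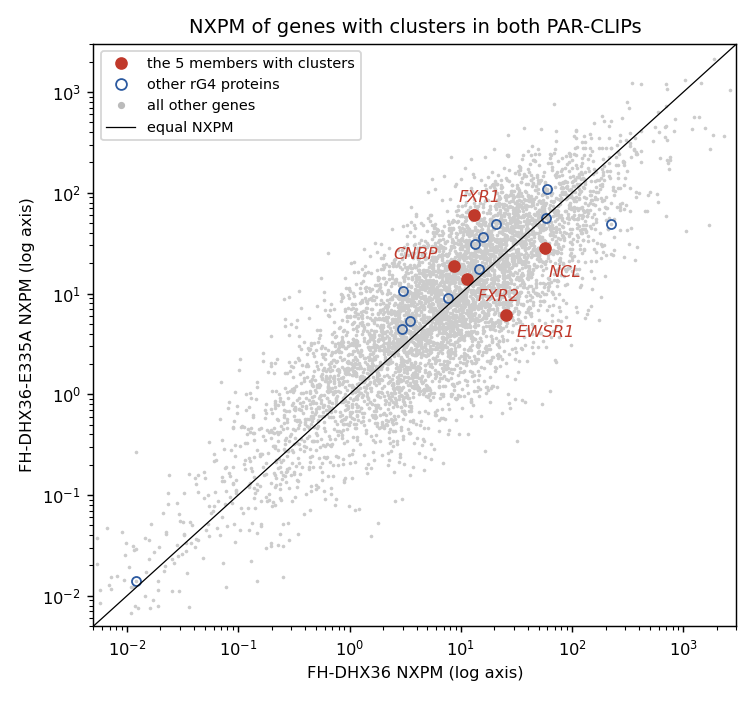
FH-DHX36 NXPM against FH-DHX36-E335A NXPM on log axes, for genes that both PAR-CLIPs list with clusters (44 of 5669 lie outside the axes), with the 5 members filled in red and other G-quadruplex binding or unwinding proteins as open blue circles. FXR1, CNBP and FXR2 lie above the line of equal NXPM, and NCL and EWSR1 below it.

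All 5 mRNAs carried a larger 3'UTR share with FH-DHX36-E335A. Of exonic reads, the 3'UTR share on FXR1 was 14.0% (9.53% to 20.2%) with FH-DHX36 and 91.4% (90.2% to 92.5%) with FH-DHX36-E335A. On NCL it was 2.99% (2.49% to 3.58%) and 43.5% (42.1% to 44.9%). On EWSR1 it was 1.12% (0.732% to 1.70%) and 28.5% (26.5% to 30.5%), and on FXR2 0% (up to 2.20%) and 37.8% (34.8% to 41.0%). CNBP, with 84.9% and 97.1%, was high in both. The intervals of both PAR-CLIPs were apart on FXR1, NCL, EWSR1 and CNBP. On FXR2, 0% stands for no listed FH-DHX36 cluster in the 3'UTR, so that its interval does not bound the share there. The 37.8% of FXR2 came from 1 cluster. Over all genes pooled, the 3'UTR share was 51.4% for FH-DHX36 against 71.9% for the mutant, so that the library as a whole moved the same way. Taken gene by gene, 50.8% of the 4790 genes with exonic reads in each PAR-CLIP had the larger share with FH-DHX36-E335A.

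All 5 members had at least 100 exonic reads in each PAR-CLIP. Of the 2457 genes that did, 58% had the larger 3'UTR share with FH-DHX36-E335A, and 44.4% gained at least 10 percentage points, with a median difference over all of them of 5.74 points, compared with 12.1 points on CNBP, 27.4 on EWSR1, 37.8 on FXR2, 40.5 on NCL and 77.4 on FXR1. Pooled over the 5 members, 12.6% of exonic FH-DHX36 reads and 72.8% of exonic FH-DHX36-E335A reads lay in the 3'UTR, but CNBP alone gave 8664 of the 13728 FH-DHX36-E335A reads there. The number of clusters did not move in this way. The 3'UTR held 10 of the 31 exonic FH-DHX36 clusters of the members and 16 of the 52 exonic FH-DHX36-E335A clusters.

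**Figure D4:**
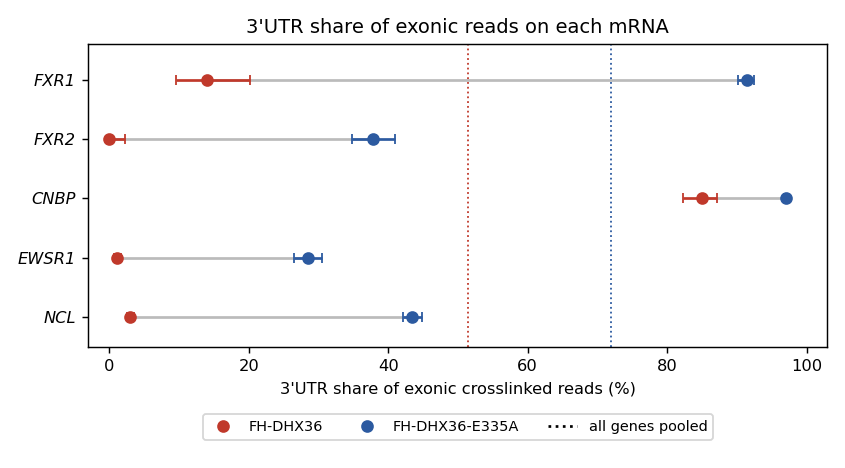
Share of exonic crosslinked reads in the 3'UTR, in percent, for the 5 members with clusters, with FH-DHX36 in red, FH-DHX36-E335A in blue and 95% Wilson intervals of counting error. Dotted lines give the share over all genes, 51.4% and 71.9%, and each blue point lies to the right of its red point. The red point of FXR2 stands for no listed cluster in the 3'UTR.

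On FXR1, EWSR1 and NCL, which had reads in the CDS and the 3'UTR of both PAR-CLIPs, the regions moved in opposite directions. The RPM of the CDS was lower with FH-DHX36-E335A by a ratio of 0.343 on FXR1 (0.275 to 0.429), 0.185 on EWSR1 (0.173 to 0.199) and 0.182 on NCL (0.173 to 0.192). The RPM of the 3'UTR was higher by a ratio of 22.3 on FXR1 (14.9 to 35.3), 6.54 on EWSR1 (4.23 to 10.6) and 4.49 on NCL (3.71 to 5.47). Of the 1089 genes with reads in both regions of both PAR-CLIPs, 40.4% showed this pair of directions and 7.16% the reverse. With at least 100 exonic reads in each, it was 40.7% of 947 genes. The regional NXPM, which the authors scaled to the reads of each region, removes the shift of the whole library. It had the same directions on the 3 genes, with CDS values of 191 and 58.3 on NCL, 79.0 and 24.6 on EWSR1, and 39.4 and 22.7 on FXR1, with the mutant given last. The 3'UTR NXPM was 4.40 and 14.2 on NCL, 0.659 and 3.11 on EWSR1, and 4.75 and 76.5 on FXR1. On this scale 22.1% of the 1089 genes had both directions.

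**Figure D5:**
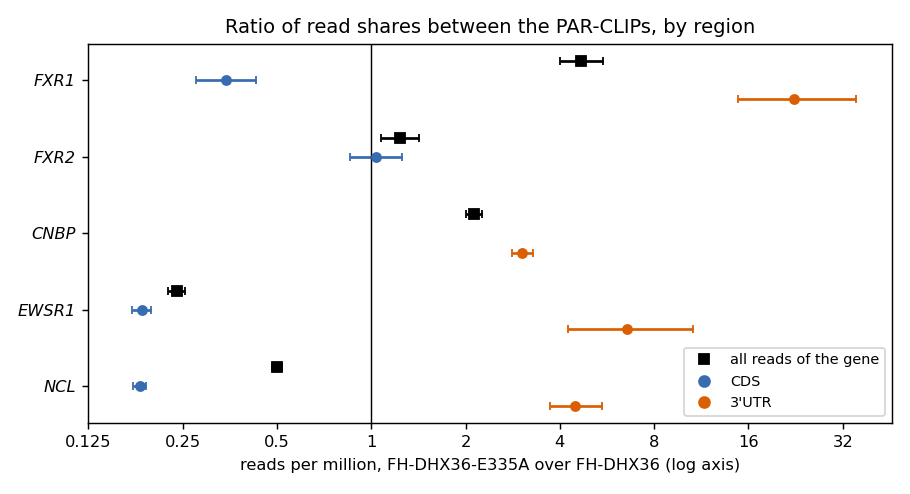
Ratio of RPM, FH-DHX36-E335A over FH-DHX36, on a log axis, for all reads of the gene (black squares), the CDS (blue) and the 3'UTR (orange), with exact 95% intervals of counting error. On FXR1, EWSR1 and NCL the CDS lies left of 1 and the 3'UTR right of 1, and CNBP and FXR2 lack a point where one PAR-CLIP had no reads.

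Clusters of another annotation also differed between the PAR-CLIPs, but not in the same direction on every member. At least 1 such cluster was listed on 45.4% of the genes bound by FH-DHX36-E335A and on 20.9% of those bound by FH-DHX36. Another annotation was given to 4902 of the 24037 mutant reads of the members and to 400 of their 7482 FH-DHX36 reads, and these are left out of the exonic share. As a share of all reads of the gene, they were higher with FH-DHX36-E335A on NCL (38.3% against 0%), FXR1 (24.0% against 0%) and EWSR1 (2.84% against 0%). The share was lower with FH-DHX36-E335A on FXR2 (14.4% against 31.3%) and CNBP (9.71% against 28.0%). Over all reads of the gene, the 3'UTR share was still larger with FH-DHX36-E335A on each mRNA, at 67.0% against 14.0% on FXR1, 28.5% against 0% on FXR2, 87.3% against 61.2% on CNBP, 27.3% against 0.998% on EWSR1 and 26.8% against 2.99% on NCL. Whether 1 site was placed in different categories in the PAR-CLIPs was not tested.

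A list of 16 other proteins known to bind or unwind RNA G-quadruplexes gives the wider setting. At least 1 FH-DHX36-E335A cluster was listed on 34.5% of all genes, of any expression level, and on 13 of these 16. At least 1 FH-DHX36 cluster was listed on 22.4% of all genes and on 12 of these 16. Their FH-DHX36-E335A NXPM had a median of 17.4, from 0.0140 on YBX1, an abundant mRNA-packaging protein, to 109.5 on LIN28B, a regulator of let-7 microRNA. SRSF1, a splicing factor, had 56.7, HNRNPA2B1, a nuclear RNA-binding protein, 49.0, and HNRNPA1 4.42. Of the 12 with clusters in both PAR-CLIPs, 4 had a ratio of at least 2 toward FH-DHX36-E335A and 1, HNRNPA2B1, toward FH-DHX36. Over all 5669 genes with clusters in both, 28.6% and 24.8% passed this ratio in these directions. DDX5, HNRNPH2 and AFF2 were, like FMR1 and TAF15, without a cluster in either PAR-CLIP.

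The genes most like each member were sought by their shares of reads over the 5'UTR, CDS, 3'UTR, introns and other annotation. Likeness was the sum of absolute differences in percentage points, averaged over both PAR-CLIPs, among 3116 genes with at least 100 reads in each. The nearest gene was USP38 for NCL, at 5.49 points, and HRAS for FXR1, at 6.97 points. AHNAK was nearest to EWSR1 at 13.5 points, H3F3B to CNBP at 14.4 points and LONP1 to FXR2 at 23.7 points. No member was the nearest gene of another. NCL and EWSR1 were 46.1 points apart, and the paralogs FXR1 and FXR2 92.3 points. Of the 3116 genes, 241 were closer to NCL than EWSR1 was, and 339 closer to EWSR1 than NCL was. For the paralogs, 947 were closer to FXR1 than FXR2 was, and 826 closer to FXR2 than FXR1 was.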

How the data were processed

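Crosslinked read counts and numbers of clusters were deposited by the authors as counts per gene and annotation category, without normalization and with the replicates combined. NXPM was deposited by the authors as a score, in which reads were scaled and then divided by RNA abundance. According to the methods, reads were aligned to hg19, PARalyzer called clusters within PARpipe at default settings, and GENCODE v19 gave the categories. Versions of PARalyzer and PARpipe are not given in the sources used here. From the submitters' processing notes comes bcl2fastq 2.17.1.

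RPM used the sums of 2160413 and 8752127 crosslinked reads. RNA abundance was recovered as RPM over NXPM, minus a constant of 0.001. Reads of another annotation are the total minus the 4 listed categories. Shares have Wilson intervals, ratios exact conditional binomial intervals, and NXPM per kb exact Poisson intervals. The interval of ratios was checked on simulated counts, and the G-run search on made sequences with a known number of matches. Python 3.11.15, scipy 1.17.1 and pandas 2.3.3 were used. Named genes are the 7 members, the list of 16, of which the 3 highest and 2 lowest by FH-DHX36-E335A NXPM are given, and the nearest gene of each member. TUBB and the list's genes without a cluster were named after their values were seen. The members and lists were chosen with earlier results of these data known. The list of 16 was drawn up with 1 further gene, which is in none of its counts and is not reported here. No test between the cell lines was made, because the deposited values give 1 number per gene and line.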

Additional observations from a re-analysis of the deposited data

How the results depend on the processing

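No paired analysis was possible because the deposited values combine the replicates of each cell line, and for the same reason no replicate could be left out. The 5 members with a cluster stayed 5 when an exonic cluster or at least 2 clusters were required. By share of clusters in place of reads, 1 member in place of 3 was higher with FH-DHX36-E335A. The ratio of FH-DHX36-E335A over FH-DHX36 shares of clusters, computed per gene after seeing the data, turned direction on FXR2 (0.904) and CNBP (0.397), and was 1.95 on FXR1, 0.340 on EWSR1 and 0.406 on NCL. The ratio of read shares, scaled by the median ratio over genes bound in both, left the counting interval on CNBP (1.96), EWSR1 (0.220) and NCL (0.461). With exonic reads alone, a setting chosen after seeing the data, it was 3.46 on FXR1, 2.68 on CNBP, 0.259 on EWSR1 and 0.312 on NCL. No ratio of read shares changed direction under the settings that use reads. The pooled 3'UTR share of the members, 12.6% for FH-DHX36 against 72.8% in the mutant, was 32.3% and 30.8% by clusters, and 20.6% and 59.6% as a mean over members. By clusters the difference between the PAR-CLIPs was therefore not seen. The median member stood in the top 38.2% of bound genes by FH-DHX36 NXPM and the top 25.5% by FH-DHX36-E335A NXPM, and in the top 6.73% and 6.80% by reads. Of the 71 G-run matches, 2 met runs of at least 3 guanines, while spacers of up to 12 nt gave 94 and the longest transcripts 65. A region listed at 0 in the FH-DHX36 PAR-CLIP, which holds fewer crosslinked reads, had no listed cluster and is not shown to be unbound. Whether depth accounts for such a value was not tested.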
